A study of Capsicum annuum and Capsicum annuum
Solanum lycopersicum with 48 samples.

Results

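Self-grafted pepper junctions were compared between 3 and 1 days after grafting (DAG), across every pepper gene of the deposited table, 30088 genes of the 63692 genes of both species in the series. The plants were wild-type Capsicum annuum var. Big Dipper seedlings. They were cut and wedge-grafted to a plant of the same variety, so that scion (the shoot part) and stock (the root part) were both pepper. Each time point held 4 libraries of polyadenylated RNA, 8 of the 48 libraries of the series, and each library came from the junction of 1 plant, that is, from the joined ends of scion and stock together. The pepper self-graft at 5 DAG, the tomato self-graft (var. M82) and both heterografts, written scion:stock (in pepper:tomato the shoot was pepper and the root tomato, in tomato:pepper the reverse), with 4 libraries in each group, serve here only to place these genes. No ungrafted stem was analysed here, so a value at 1 DAG already follows cutting and joining. By the study's methods, plants stood under domes in darkness for 3 days after grafting and went back to light on day 4. Samples at 1 DAG thus came from the dark, those at 3 DAG from at or near its end, and those at 5 DAG from the light. Time after grafting and these conditions cannot be told apart.

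A graft heals in steps. Cut cells seal the wound and switch on stress genes, cells at the cut face divide into callus, and vascular cambium and xylem are then rebuilt across the junction so that water can pass between scion and stock. In Arabidopsis, the cambium is kept dividing by the peptide receptor PXY and its downstream homeobox factor WOX4, while NAC factors of the VND and NST groups switch on xylem vessels and fibers.

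The table holds 1 value per gene and group, in FPKM (fragments scaled to transcript length and to the number of fragments in the library), made by the authors from the 4 libraries of the group. No spread between plants and no read depth can be read from it. The authors' own test columns were not used. The comparison made here rests on 1 value against 1 value, with no standard deviation, no test and no p-value, and "higher" and "lower" describe only the size of the ratio. Ratios are given as the log2 of (FPKM + 1) at 3 DAG over (FPKM + 1) at 1 DAG, which understates the difference of weakly expressed genes. At least 1 FPKM at 1 of the 2 times was reached by 17536 genes. In tissue samples of this kind, fewer cells of a type and less RNA per cell cannot be told apart.

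Of these 17536 genes, 540 were over 4-fold higher at 3 than at 1 DAG (3.08%) and 550 were over 4-fold lower (3.14%). The median log2 ratio was 0.03 and the quartiles were -0.77 and 0.72. By their larger value of the 2 times, the genes on the higher side were the more abundant. That value had a median of 57.9 FPKM and was at least 100 FPKM in 217 of 540 genes. For the lower genes the median was 17.2 FPKM and 33 of 550 reached 100 FPKM. By their values at 1 DAG the higher genes were the scarcer, with a median of 7.56 FPKM beside 17.2. At 1 of the 2 times, 16 of the higher and 12 of the lower genes were listed at 0. The balance between the sides depends on the scale. FPKM values of the pepper self-graft summed to 1350390 at 1 DAG and to 2360108 at 3 DAG, a ratio of 1.75, and rescaling each time point to the same sum lowered the log2 ratio of plain FPKM by a constant (a shift of -0.81) and took the median ratio of FPKM + 1 to -0.63. On that scale 160 genes were over 4-fold higher and 1362 over 4-fold lower, so that the higher genes made up 10.5% of the genes past 4-fold in place of 49.5%. Where the direction of a named gene or family turns on that scale, the rescaled value is given with it.

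**Figure D1:**
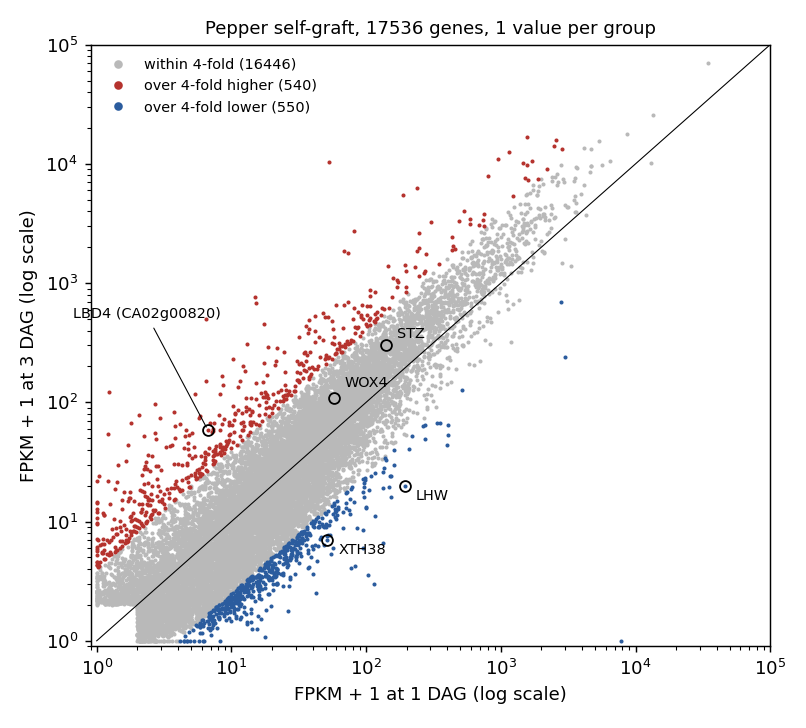
Expression of 17536 pepper genes in the pepper self-graft, FPKM + 1 at 1 DAG (x axis) against 3 DAG (y axis), both log scales, 1 point per gene and 1 value per group, with equality as a line. Red marks the 540 genes over 4-fold higher at 3 DAG, blue the 550 over 4-fold lower and grey the rest, and open circles mark 5 genes described in the text. Most red and most blue points lie under 100 FPKM at 1 DAG, where the medians are 7.56 FPKM for red and 17.2 for blue. At 3 DAG the medians are 57.9 and 2.41 FPKM.

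Above the lowest levels, the ratio followed abundance. Genes with a geometric mean of 1 to 3 (in FPKM + 1, over 1 and 3 DAG) had a median log2 ratio of -0.49 over 2040 genes, those of 3 to 10 a median of -0.55 over 4172 genes, those of 30 to 100 a median of 0.35 over 3979 genes, and the 62 genes of 3000 or more a median of 1.39. On the rescaled FPKM these medians were -0.66, -1.03, -0.43 and 0.58, so that the class of 30 to 100 turned below 0. In that top class 69.4% were over 2-fold higher at 3 DAG and 0% over 2-fold lower, while in the class of 3 to 10 these shares were 10.9% and 34.7%. Because the class was set by the same 2 values, genes were also classed by their level in other plants, the pepper:tomato junctions at 1 DAG. The median was then 0.02 in the class of 1 to 3 with 2702 genes, which breaks the gradient, -0.39 in the class of 3 to 10 and 0.92 in the class of 1000 to 3000, with 119 genes. The tomato self-graft had a gradient in the same direction with its own genes, from -0.25 in the class of 1 to 3 and -0.19 in that of 3 to 10 to 1.495 in its top class of 25 genes. It was weaker at 5 DAG, where the top class of the pepper self-graft had a median log2 ratio of 0.37 over 1 DAG. Pepper genes above 1000 FPKM numbered 203 at 1 DAG, 407 at 3 DAG and 242 at 5 DAG, and the 100 most abundant genes held 24.1%, 31.9% and 26.5% of all FPKM.

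**Figure D2:**
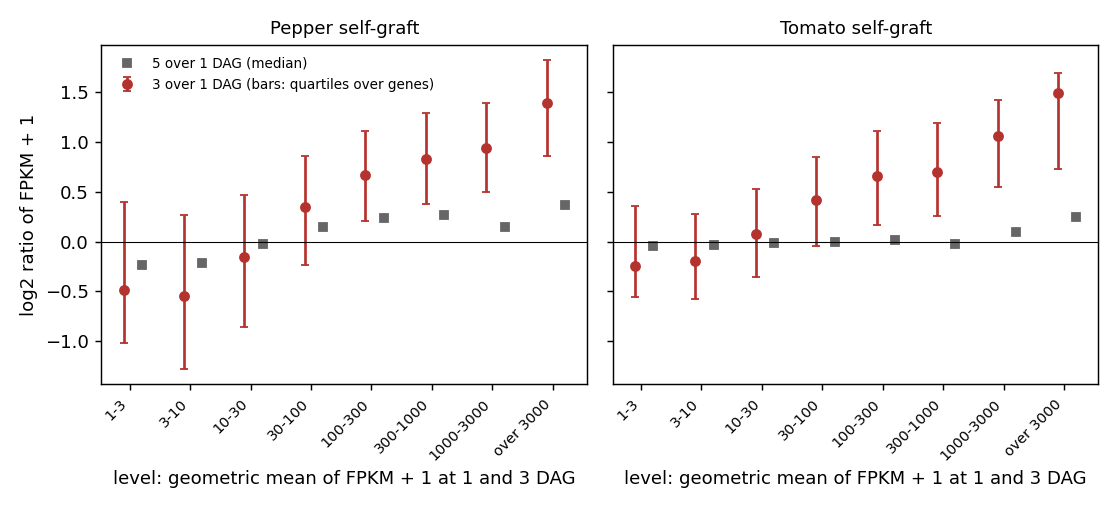
Median log2 ratio of FPKM + 1 by class of abundance (x axis, geometric mean of FPKM + 1 at 1 and 3 DAG) in the pepper self-graft (left) and the tomato self-graft (right). Red points give 3 over 1 DAG with the quartiles over genes as bars, and grey squares the median of 5 over 1 DAG. In pepper the median goes from -0.49 in the lowest class to 1.39 in the highest, and at 5 DAG it is 0.37 in the highest.

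Among the transcription factors of the cambium, LHW and 1 LBD4 ortholog stood far lower at 3 than at 1 DAG, the other LBD4 ortholog stood far higher, and both WOX genes were within 2-fold. The 8 listed genes comprised 1 over 2-fold higher and 2 over 2-fold lower, against 16.5% and 18.8% of all genes tested. LHW (CA11g16160), a bHLH factor that in Arabidopsis promotes divisions of young vascular cells, had 194 FPKM at 1 DAG, 19.0 at 3 DAG and 51.7 at 5 DAG, a log2 ratio of -3.28 at 3 over 1 DAG. LHW was thus abundant on the first day and scarce at 3 DAG, and at 5 DAG it lay between. LBD4, a factor of the lateral organ boundaries family that acts in Arabidopsis vascular tissue, has 2 pepper orthologs here. CA02g00820 had 5.70, 57.3 and 36.6 FPKM at 1, 3 and 5 DAG (log2 ratio 3.12 at 3 over 1 DAG), and CA12g22480 had 75.2, 14.5 and 29.1 FPKM (-2.30). Together the orthologs nearly traded places, so that the copy that prevailed at 1 DAG was the scarcer at 3 DAG.

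WOX4 (CA04g18420), the homeobox factor that maintains cambial cells, had 56.5 FPKM at 1 DAG, 108 at 3 DAG and 133 at 5 DAG, a log2 ratio of 0.92 that stayed under 2-fold. Its relative WOX14 (CA02g19960) had 139, 157 and 175 FPKM (0.17). WOX4 thus ended at 5 DAG with more than at 1 DAG, as did its counterpart in the tomato self-graft, Solyc04g078650, with 15.1, 19.9 and 20.8 FPKM and a ratio of 0.37. The homeobox gene KNAT1 (CA04g16610) had 86.3, 63.5 and 77.5 FPKM (-0.44), and the Dof factor TMO6 (CA06g23590) had 51.5, 69.3 and 78.7 FPKM (0.42). CA04g23050, which the study lists under both MP, an auxin response factor, and the homeodomain factor ATHB8, had 33.2, 34.3 and 57.2 FPKM (0.04). None of these 5 was past 2-fold. On the rescaled FPKM the ratios of WOX14, TMO6 and CA04g23050 lay below 0, at -0.62, -0.37 and -0.72, that of KNAT1 was -1.22 and that of WOX4 was 0.12.

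Receptors of the cambium were lower at 3 DAG, and at 5 DAG the PXY gene CA03g15770 was above its first level (log2 ratio 0.64 at 5 over 1 DAG). On FPKM as deposited, PXY CA05g14410 and MOL1 were near their first level at 5 DAG (0.13 and 0.07). The FPKM sum was 1585777 at 5 DAG beside 1350390 at 1 DAG, and these ratios were not rescaled. PXY, the receptor-like kinase that binds the cambial peptide, has 2 orthologs. CA03g15770 had 14.5, 9.98 and 23.2 FPKM (log2 ratio -0.50 at 3 over 1 DAG), and CA05g14410 had 14.9, 6.84 and 16.4 FPKM (-1.02). MOL1 (CA07g02560), a receptor-like kinase that restrains the cambium in Arabidopsis, had 18.1, 9.18 and 19.2 FPKM (-0.91). ER (CA08g03060), the ERECTA receptor kinase of stem growth, had 8.88, 3.26 and 5.80 FPKM (-1.21), and the ER-like gene CA03g17140 had 1.66, 0.542 and 0.949 FPKM (-0.79). For all 5 receptors the lowest of the 3 values was that at 3 DAG, although only CA05g14410 and ER passed 2-fold. The coreceptor SERK1/SERK2 (CA04g14890) differed from them, with 40.3, 41.1 and 60.7 FPKM (0.03, and -0.75 on the rescaled FPKM).

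The 4 BIN2/BIL1 kinases, which carry brassinosteroid and peptide signals to the cambium, were all modestly higher at 3 DAG on FPKM as deposited, with log2 ratios from 0.41 to 0.76 that turned to between -0.38 and -0.04 on the rescaled FPKM. The most abundant, CA04g09860, had 234, 389 and 274 FPKM, and CA02g13610 had 178, 303 and 229. The 2 orthologs of BES1, the brassinosteroid transcription factor that these kinases hold in check, split. CA04g20150 had 69.9, 41.4 and 50.3 FPKM (-0.74), and CA12g17430 had 26.6, 44.7 and 40.2 FPKM (0.73, and -0.05 on the rescaled FPKM). Of the 12 signalling genes, 0 were over 2-fold higher and 2 over 2-fold lower, against 16.5% and 18.8% of all genes tested.

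The master regulators of xylem were scarce at all 3 times. VND7 (CA06g14050), a switch for vessel formation in Arabidopsis, had 2.93, 4.31 and 5.65 FPKM (log2 ratio 0.44, and -0.16 on the rescaled FPKM), and VND6 CA06g06410 had 3.31, 3.23 and 3.42 FPKM (-0.03). VND6 CA03g15410 had 0.402, 0.710 and 0.525 FPKM and NST2 (CA01g34750) had 0.0198, 0.459 and 1.25 FPKM, so that both stayed under 1 FPKM at 1 and 3 DAG and were not among the genes tested. NST1 (CA11g08290), which drives fiber walls, had 1.28, 0.0789 and 0.558 FPKM (-1.08). These values lie near or under 1 FPKM. The ratio was inside 2-fold on the rescaled FPKM (-0.92) and with a pseudocount of 5 FPKM (-0.31). The tomato counterpart of NST1, Solyc10g005010, went the other way in the tomato self-graft, from a value also under 1 FPKM, with 0.911, 2.90 and 5.51 FPKM (1.03). Over the whole cambium and xylem list with the stress genes beside it, 30 of 32 genes reached 1 FPKM. Of these 30, 3 were over 2-fold higher and 6 over 2-fold lower, against 16.5% and 18.8% of all genes tested. Their median log2 ratio was -0.02 beside 0.03 for all genes tested.

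**Figure D3:**
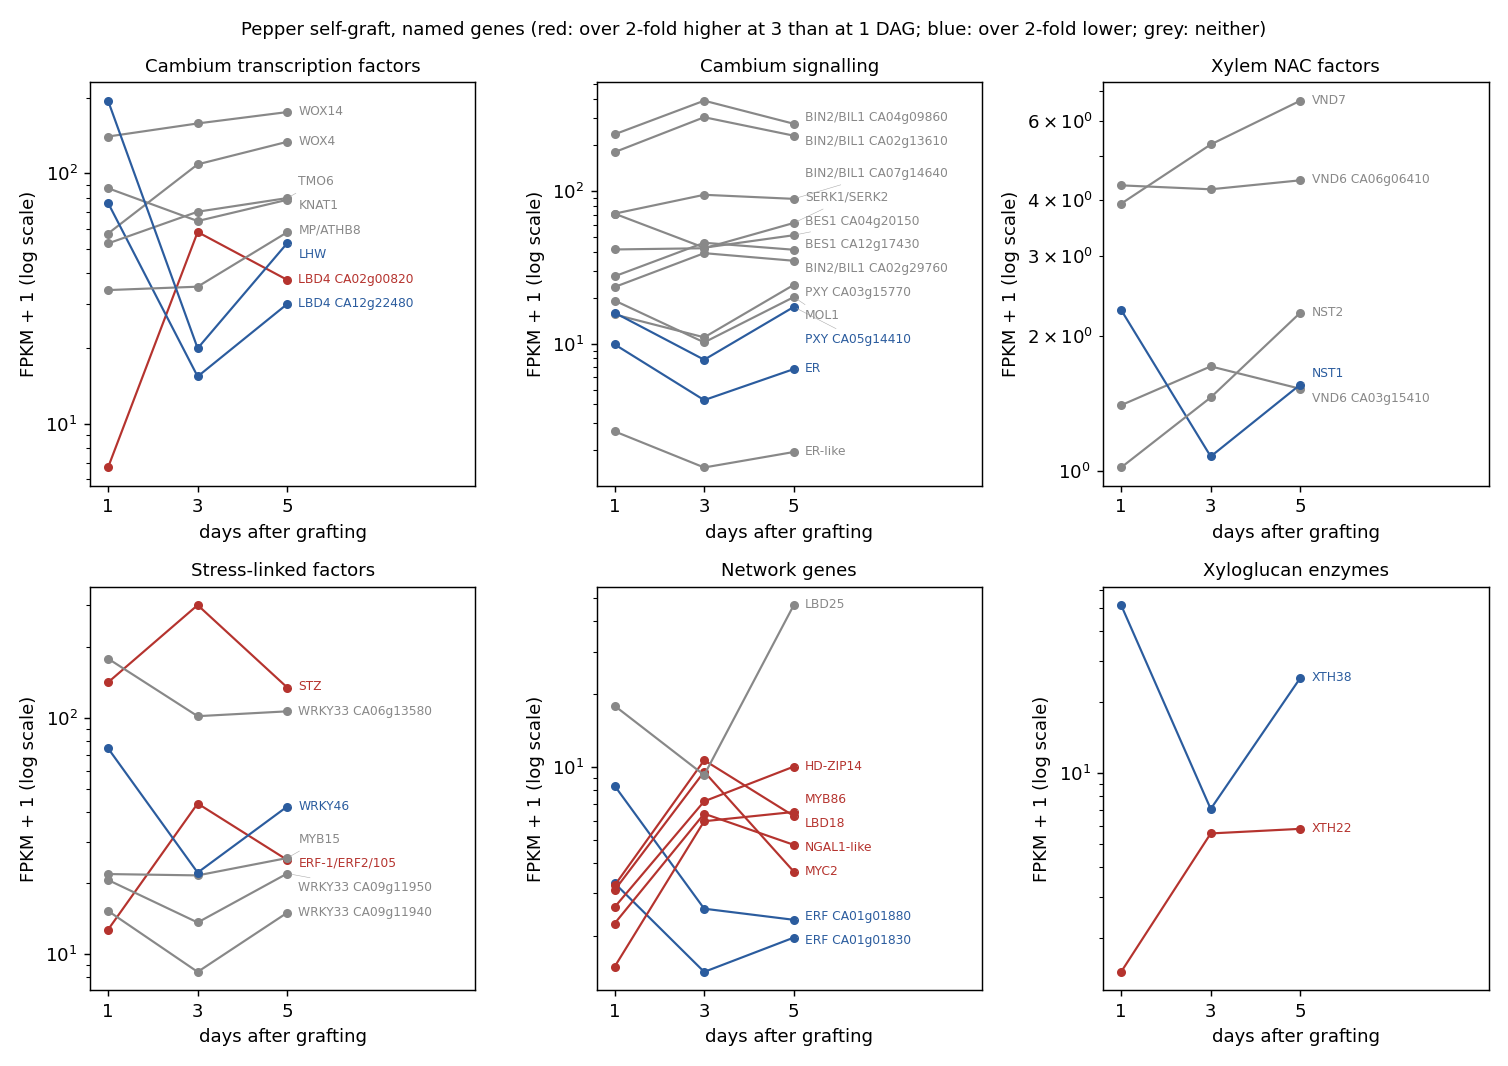
FPKM + 1 (y axes, log scales that differ between panels) of the 42 pepper genes named by the study at 1, 3 and 5 DAG (x axes) in the pepper self-graft, 1 value per group. Red lines are genes over 2-fold higher at 3 than at 1 DAG, blue lines over 2-fold lower and grey lines neither, 2 of them (VND6 CA03g15410 and NST2) under 1 FPKM at both times. LHW, LBD4 CA12g22480, XTH38 and the PXY genes dip at 3 DAG, while WOX4 is higher at each later time.

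Stress-linked factors that the study listed with the cambium did not move as a block. STZ (CA04g17920), a zinc finger repressor induced by drought and cold in Arabidopsis, had 141, 299.996 and 134 FPKM (log2 ratio 1.09, and 0.28 on the rescaled FPKM), a value at 3 DAG that was gone by 5 DAG. CA05g14470, an ethylene response factor, had 11.7, 42.5 and 24.1 FPKM (1.77, and 0.97 on the rescaled FPKM). WRKY46 (CA08g08240), a defence factor, had 73.5, 21.2 and 41.2 FPKM (-1.75). The 3 orthologs of WRKY33, which in Arabidopsis protects against necrotrophic fungi, had log2 ratios of -0.81, -0.86 and -0.60, all within 2-fold. The most abundant of them, CA06g13580, had 178, 101 and 106 FPKM. MYB15 (CA06g10340) had 20.9, 20.6 and 24.6 FPKM. Of these 7 genes, 2 were over 2-fold higher and 1 over 2-fold lower, against 16.5% and 18.8% of all genes tested. In the tomato self-graft the counterpart of WRKY46, Solyc01g095630, also had its lowest value at 3 DAG, with 17.99, 7.60 and 10.4 FPKM, whereas the 2 tomato STZ genes were not higher at 3 DAG (log2 ratios -0.11 and -0.88).

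Of the 8 hubs that the study names in its network of the pepper self-graft, 5 were over 2-fold higher and 2 over 2-fold lower at 3 DAG. The shares of all genes tested were 16.5% and 18.8%. The hubs had a median log2 ratio of 1.57. The study chose the hubs on these libraries, so their direction is no independent evidence. Those that were higher were LBD4 CA02g00820, the jasmonate factor MYC2, LBD18, the NGAL1-like gene and MYB86, with ratios from 1.51 to 3.12. Apart from LBD4 they had at most 9.67 FPKM at 3 DAG. Both AP2/ERF hubs were lower (-1.22 and -1.69). On the rescaled FPKM the ratios of the 5 higher hubs stayed above 0, and those of LBD4 (2.28) and MYB86 (1.19) stayed past 2-fold. The remaining hub, LBD25 (CA02g30000), was just inside 2-fold at -0.95. HD-ZIP14, a homeodomain factor listed with the network, had a ratio of 1.46 (0.72 on the rescaled FPKM). The xyloglucan enzymes, which cut and rejoin cell wall polymers, split between XTH22 at 1.95 and XTH38 at -2.87.

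On FPKM as deposited, transcription factor families separated by direction. Of 192 pepper regulators with a family name, a list that the study chose on pepper:tomato libraries, 191 were in the table and 190 reached 1 FPKM. Of these, 43 (22.6%) were over 2-fold higher and 60 (31.6%) over 2-fold lower, against 16.5% and 18.8% of all genes tested, and their median log2 ratio was -0.59. On the rescaled FPKM, 758 of all 17536 genes tested were over 2-fold higher and 6079 over 2-fold lower. Family counts on that scale are to be read beside these. The list was picked for change in another graft and does not stand for all pepper regulators. The 14 families with 5 or more members held 137 of the genes.

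LBD factors, which act at organ boundaries and in callus and lateral root initiation, led the higher side. Of 7 members 5 were over 2-fold higher and 0 lower, with a median log2 ratio of 1.72, and 3 higher and 2 lower on the rescaled FPKM (median 0.94). Among the members are the hubs LBD4 CA02g00820, LBD18 and LBD25, which the study chose on these libraries, and the median is the value of LBD18. The family is therefore no independent evidence either. CA06g02870 was the highest, with 1.17 FPKM at 1 DAG, 23.7 at 3 DAG and 11.3 at 5 DAG (3.51), and LBD25 was the lowest. Of 9 NAC factors 5 were higher and 1 lower, with a median of 1.27. CA07g21470 had 0.660, 7.60 and 2.09 FPKM (2.37), and CA02g20290 was the lowest, with 4.25, 1.56 and 2.79 FPKM (-1.04). Among 7 HD-ZIP factors 4 were higher and 1 lower, with a median of 1.11. CA01g27890 had 0.906, 8.17 and 3.14 FPKM (2.27), and the most abundant member, CA01g17370, was the lowest, with 111, 49.3 and 40.9 FPKM (-1.16). The NAC and HD-ZIP medians stayed above 0 on the rescaled FPKM, at 0.52 and 0.31. On that scale, however, both NAC and HD-ZIP factors had 2 members higher and 2 lower. In each of these 3 families the member with the highest ratio began near or under 1 FPKM and was lower again at 5 DAG.

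The ERF factors, which respond to ethylene and wounding, ranged most widely on the higher side. Of 14 members 5 were over 2-fold higher and 2 lower, with a median of 0.52. On the rescaled FPKM 2 were higher and 6 lower, and the median turned to -0.16. CA07g13850 had 3.57, 58.0 and 19.1 FPKM (3.69), the highest ratio of any listed regulator, and CA01g01440 had 26.9, 10.5 and 9.64 FPKM (-1.28). Of 5 TCP factors 2 were higher and 0 lower (median 0.41, and 0.03 on the rescaled FPKM), from CA07g14430 at -0.61 to CA03g16800 at 2.32. Of 5 Dof factors 2 were higher and 0 lower (median 0.55, and -0.25 on the rescaled FPKM), from CA02g01120 at -0.74 to CA02g25980 at 1.64. On the rescaled FPKM 1 TCP factor was higher and 1 lower, while 0 Dof factors were higher and 1 was lower.

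The bHLH family had the lowest median of the 14 families. Of 16 members 11 were over 2-fold lower, 6 of them over 4-fold, and 1 was higher, with a median of -1.34. CA03g22700 had 93.3 FPKM at 1 DAG, 7.55 at 3 DAG and 36.6 at 5 DAG (-3.46). Further members with abundant transcripts at 1 DAG were CA03g14140, with 95.5, 18.7 and 41.4 FPKM (-2.30), and CA06g26450, with 23.3, 1.89 and 13.1 FPKM (-3.07). They lie outside the naming rule and were chosen after their values were seen. CA03g22700, CA03g14140 and CA06g26450 all stood higher at 5 than at 3 DAG without reaching their 1 DAG value, as LHW did. MYC2 was the only bHLH member over 2-fold higher. On the rescaled FPKM 0 bHLH members were higher and 13 lower (median -1.55). Other families were close to this on that scale, where 6079 of all 17536 genes tested were also over 2-fold lower. B3 factors had 12 of 14 lower (median -1.45), WRKY factors 10 of 12 (-1.50) and MYB-related factors 9 of 11 (-1.33).

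The other families had medians below 0, that of the MYB factors near 0. B3 factors had 1 member higher and 7 lower of 14 (median -1.002), from CA08g17790 at -2.15 to CA04g19000 at 1.23. MYB-related factors had 2 higher and 5 lower of 11 (median -0.92). Their lowest member, CA10g07860, had 13.2, 0.245 and 1.03 FPKM (-3.51), and their highest, CA10g05760, had 1.12, 11.04 and 9.68 FPKM (2.51). WRKY factors, many of them regulators of defence, had 1 higher and 5 lower of 12 (median -0.83). The exception, CA07g14560, had 3.58, 22.2 and 13.3 FPKM (2.34), and WRKY46 was the lowest. C2H2 zinc finger factors had 1 higher and 4 lower of 10 (median -0.73), from CA06g23720 at -1.90 to CA06g23470 at 1.02. Of 7 heat shock factors (HSF) none passed 2-fold in either direction (median -0.64), from CA07g15920 at -0.83 to CA04g18550 at 0.42 (-0.23 on the rescaled FPKM). G2-like factors had 1 higher and 1 lower of 5 (median -0.39), from CA06g13590 at -1.41 to CA05g06710 at 1.31. MYB factors lay on both sides, with 2 higher and 5 lower of 15 and a median of -0.07, from CA03g33530 at -1.84 to MYB86 at 2.00.

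**Figure D4:**
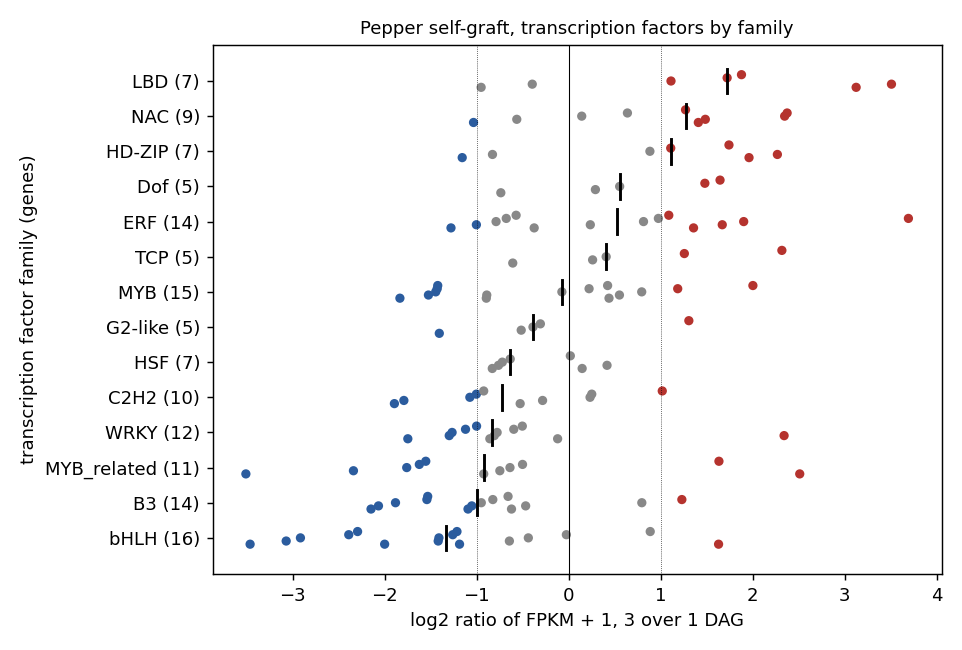
Log2 ratio of FPKM + 1 at 3 over 1 DAG (x axis) of the transcription factors of 14 families with 5 or more members (y axis, number of genes in brackets) in the pepper self-graft. Each point is 1 gene, red over 2-fold higher, blue over 2-fold lower and grey neither, dotted lines mark 2-fold and the short bars the family median, and families are ordered by median, from 1.72 for LBD to -1.34 for bHLH. On FPKM rescaled to equal sums the ERF and Dof medians turn negative.

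The steepest single differences were in genes to which the sources used here give no name. At 10 FPKM or more in the higher group, the 10 highest ratios ran from 5.09 to 7.61 on the log2 scale. CA04g20280 had 51.9 FPKM at 1 DAG, 10365 at 3 DAG and 11700 at 5 DAG. CA05g17120 had 0.241, 121 and 91.2 FPKM, and CA04g02730 had 79.8, 2748 and 2381 FPKM. These 3 genes kept most of their 3 DAG level at 5 DAG. Others were far lower again at 5 DAG. CA02g00210 had 1.07, 77.2 and 2.62 FPKM, CA09g03220 had 5.46, 503 and 130 FPKM, and CA06g15170 had 0.799, 66.1 and 13.0 FPKM. The other 4, CA03g23630, CA02g15780, CA06g08750 and CA12g20840, had 53.2 to 757 FPKM at 3 DAG.

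At the lower end, CA04g12700 was the 5th most abundant gene at 1 DAG, with 7837 FPKM, and was listed at 0 at 3 and at 5 DAG. As labelled, its values over the same days were 4454, 0 and 8058 FPKM in pepper:tomato and 3215, 8540 and 8177 FPKM in tomato:pepper. The heterograft labels at 3 DAG are uncertain, as described below, and with those values exchanged the 0 would fall in tomato:pepper. In these tables it is therefore either above 3000 FPKM or at 0, and whether a listed 0 is a failed estimate was not tested. The other 9 lowest genes had log2 ratios from -5.24 to -3.87. CA07g02110 had 113, 2.01 and 45.2 FPKM, CA07g08820 had 132, 5.57 and 52.95 FPKM and CA03g15880 had 94.6, 4.96 and 36.2 FPKM. For these 3 the values at 5 DAG were well above those at 3 DAG. CA06g28170 likewise had 35.3 FPKM at 5 DAG, and CA07g04400 had 10.8. CA12g20490, CA03g00590, CA09g18720 and CA03g00580 stayed under 10 FPKM at 5 DAG.

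The most abundant transcripts followed the general gradient. CA09g05230, the most abundant at both times, had 34706, 69949 and 37376 FPKM (log2 ratio 1.01), CA07g03730 had 13558, 25740 and 12296 FPKM (0.92) and CA10g21490 had 8575, 17889 and 8596 FPKM (1.06). All 3 were about 2-fold higher at 3 DAG only, beside the ratio of 1.75 between the FPKM sums. CA03g04230 did not share this, with 12981, 10082 and 8546 FPKM (-0.36). CA01g31060, with 1553, 16687 and 5305 FPKM (3.43), and CA02g15240, with 2589, 15959 and 7715 FPKM (2.62), joined the top 5 at 3 DAG.

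Genes with neighbouring identifiers were often past 4-fold together. In identifier order, 103 of the 540 higher genes (19.1%) and 139 of the 550 lower genes (25.3%) stood next to a gene past 4-fold in the same direction. Of all genes tested, 5.96% stood next to a gene past 4-fold on the higher side and 6.09% next to one on the lower side. These neighbours formed 47 runs on the higher and 65 on the lower side. In the longest higher run, CA05g05190 had 11.7 FPKM at 1 DAG and 183 at 3 DAG, CA05g05200 had 31.0 and 349, CA05g05210 had 239 and 1857, and CA05g05230 had 11.3 and 203. In the longest lower run, CA06g02520 had 7.75 and 0.625 FPKM, CA06g02530 had 10.7 and 1.04, CA06g02540 had 24.3 and 4.07, and CA06g02570 had 8.26 and 1.10. Runs of 3 were led by CA01g26280 and CA01g27620 on the higher side, the latter with CA01g27640 at 1451 and 10220 FPKM, and by CA02g23290 and CA04g01180 on the lower side. Neighbours can be copies of 1 gene that share reads, so the values within a run may not be separate measurements.

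At 5 DAG most of these genes lay between their 2 earlier values. Of the 540 higher genes, 441 (81.7%) did so, 86 were above the 3 DAG value and 11 below the 1 DAG value, and their median FPKM was 7.56, 57.9 and 35.8 at 1, 3 and 5 DAG. Of the 550 lower genes, 513 (93.3%) lay between and 6 were equal to an earlier value, and the median was 17.2, 2.41 and 5.58 FPKM. Of all genes tested, 63.2% lay between. The genes were chosen by their 1 and 3 DAG values, so this order describes them and supports nothing further.

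The heterografts offer separate plants in which pepper tissue is only the scion end (pepper:tomato) or only the stock end (tomato:pepper), with FPKM scaled over both species. Their labels may be exchanged, either at 3 DAG or at both 1 and 5 DAG. The pepper share of FPKM was 82.1%, 48.3% and 76.9% at 1, 3 and 5 DAG in pepper:tomato and 40.5%, 70.3% and 50.8% in tomato:pepper. Results at 3 DAG are therefore given as labelled and exchanged. If the 1 and 5 DAG columns were the exchanged ones, the exchanged results would hold with the graft names swapped. Which days are affected was not tested. In pepper:tomato, 544 of 547 lower genes that could be followed were also lower at 3 than at 1 DAG (543 of 546 exchanged), where 13024 of 16535 of all genes were. Below the median ratio of all pepper genes in that graft, -0.86, were 539 of them. In tomato:pepper, 120 of 347 were lower (34.6%, and 39.4% of 317 exchanged), beside 17.3% of all genes (24.1% exchanged), and 259 were below the median of 0.72. A gene was followed in a graft if it reached 1 FPKM there at 1 or 3 DAG. In tomato:pepper this kept 347 of the 550 lower genes, whose median at 1 DAG was 0.877 FPKM, and 14782 of all 17536. A gene under 1 FPKM at 1 DAG entered only through a higher 3 DAG value, so it could not count as lower. The share of lower genes there is thus no test of their direction. Of the higher genes, 434 of 514 (84.4%) were also higher at 3 DAG where pepper was the scion, beside 21.2% of all genes (89.2% and 32.1% exchanged). Where pepper was the stock 408 of 493 (82.8%) were higher, no more than the 82.7% of all genes (89.6% and 75.9% exchanged), and 370 lay above the median.

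By the labels, the lower genes were already scarce at 1 DAG where pepper was the stock. Scion and stock would change places here if the 1 and 5 DAG columns were the exchanged ones, which was not tested. At 1 DAG, where pepper:tomato held the larger pepper share as it did at 5 DAG, their median was 17.2 FPKM in self-grafted pepper, 11.8 in pepper:tomato and 0.877 in tomato:pepper, while all genes tested had 18.8, 13.5 and 4.84 FPKM. Of 548 lower genes at 1 FPKM or more in either heterograft, 523 (95.4%) were over 2-fold above in pepper:tomato relative to tomato:pepper and 2 were over 2-fold below, against 54.9% and 2.47% of all genes. The 540 higher genes did not share this, with 21.5% above and 20.2% below. At 3 DAG the lower genes had a median of 2.41 FPKM in the self-graft and of 1.05 and 1.19 FPKM in the heterografts, in either order of the labels. LHW had 128 FPKM at 1 DAG in pepper:tomato but 5.81 in tomato:pepper, and its 3 DAG values in these columns were 6.05 and 8.97. For the bHLH gene CA03g22700 the 1 DAG values were 89.8 and 2.78 FPKM and those at 3 DAG, as labelled, 1.58 and 16.0. WOX4, which was not lower in the self-graft, had 29.0 and 37.3 FPKM at 1 DAG. The share of scion and stock tissue in each self-graft junction was not measured, and its part in the self-graft ratios was not tested.

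**Figure D5:**
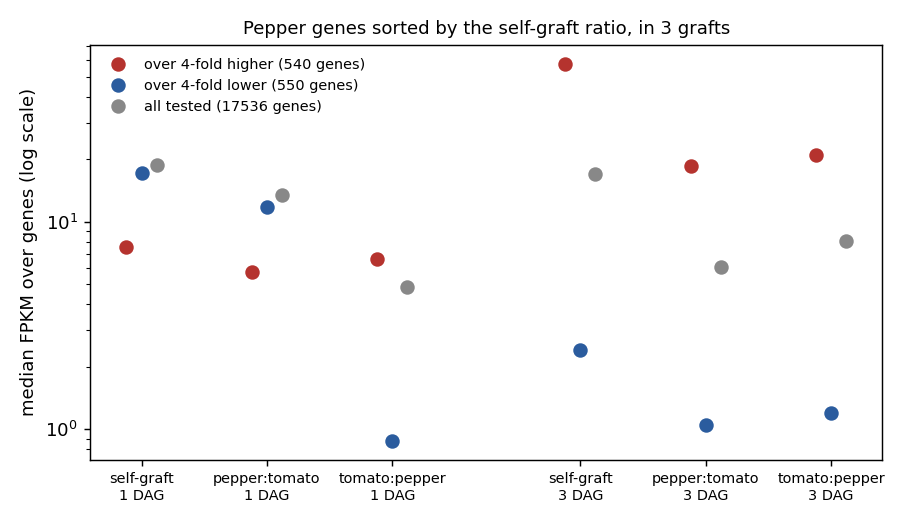
Median FPKM (y axis, log scale) of the 540 genes over 4-fold higher (red), the 550 over 4-fold lower (blue) and all 17536 genes tested (grey) at 1 and 3 DAG in the pepper self-graft and, as labelled, in both heterografts (x axis). The 2 self-graft positions show the values that chose the genes. At 1 DAG the lower genes have 17.2 FPKM in the self-graft and 11.8 in pepper:tomato but 0.877 in tomato:pepper.

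By count, the tomato self-graft had fewer genes past 4-fold over the same interval, 279 higher (1.48%) and 111 lower (0.59%) of 18813 tested. Past 2-fold it had 2358 higher (12.5%) and 932 lower (4.95%). The counts past 4-fold lay further apart on the lower side, with 550 genes in pepper and 111 in tomato, than on the higher side. The difference between species was not tested, since each rests on 1 value per group and the tables were normalized separately. The added 1 FPKM also weighs more in tomato. Genes at 1 FPKM or more at 1 DAG had a median of 11.8 FPKM there and of 19.95 in pepper. The pepper count of lower genes ran from 85 with a pseudocount of 5 FPKM to 1470 with none, and the tomato counts were not varied.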

How the data were processed

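Junctions of pepper self-grafts at 1, 3 and 5 DAG, of tomato self-grafts and of both heterografts were sequenced as directional poly(A) libraries, with 4 per group. The authors made FPKM values with TuxNet (trimming with fastq-mcf, alignment with HISAT2, quantification with Cufflinks and Cuffdiff) against the CM334 pepper genome, the ITAG3.2 tomato genome or both joined, and deposited 1 FPKM value per gene and group. Tool versions are not given in the sources used here. The tables also hold the authors' log2 fold changes and q-values between times, which were not used. Depth per library is unknown, as no counts were given, and 0 other per-sample columns were found. Pooling hides the spread between plants, and FPKM depends on what the other genes of a library hold.

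Groups followed the titles of the samples. Ratios were log2 of FPKM + 1 over genes at 1 FPKM or more at 1 of the 2 times. Genes past 4-fold (log2 ratio over 2 or under -2) and, for lists, past 2-fold were counted, with no test. Named were the 42 pepper genes to which the study gives an identifier, the 10 highest and 10 lowest ratios at 10 FPKM or more in the higher group, the 5 most abundant genes at each time, the highest and lowest member of each transcription factor family of 5 or more, and the 3 longest runs of neighbouring identifiers in each direction (ties by identifier). The members and lists were chosen with earlier results of these data known. Families came from the study's list of heterograft regulators, of which the part used here ends at CA10g07860. Of the 30088 identifiers 0 matched the reference table of genes, so names come from the study alone and no sequence is shown. Pseudocounts, filters, scalings and the exchange of 3 DAG values were varied. The comparison between the heterografts at 1 DAG was chosen after seeing the data. The counting was tested on simulated data. Python 3.11.15, pandas 2.3.3, numpy 2.4.6 and matplotlib 3.10.9 were used.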

Additional observations from a re-analysis of the deposited data

How the results depend on the processing

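No paired analysis was possible because the tables hold 1 value per group, and for the same reason no library could be left out in turn. The 540 genes over 4-fold higher became 842 with a pseudocount of 0.1 FPKM, 290 with 5 FPKM, 841 with no pseudocount and genes at 0 left out, 160 with rescaling to equal sums and 2899 at a threshold of 2-fold. The 550 lower genes became 1388, 85, 1470, 1362 and 3297 under the same settings. The higher genes made up 37.8%, 77.3%, 36.4% and 10.5% of those past 4-fold under the first 4 of these, against 49.5% as reported. At 2-fold, the 2899 higher genes became 758 with rescaling, and the 3297 lower genes became 1479 with a pseudocount of 5 FPKM and 6079 with rescaling. The 120 lower genes that were also lower in tomato:pepper became 259 after centring on the median of pepper genes. Without the filter, with a filter of 5 FPKM, with centring on the median or with the 3 DAG values exchanged, each count stayed within 1.5 times. Among the single genes, groups and families, rescaling left 36 on their side of 2-fold, moved 15 past it and 12 inside it, and a pseudocount of 5 FPKM left 48 and moved 15 inside it, while 0.1 FPKM or none left 59 and moved 4 past it. No direction of a result past 2-fold turned under any of these settings. A few weakly expressed genes give no value without a pseudocount or under the stricter filter. Depth is unknown, so its effect on weakly expressed genes could not be examined.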
